A study of Mus musculus with 11 samples.

Results

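The genes described here encode subunits of the NMDA receptor, and they are Grin1, Grin2a, Grin2b, Grin2c, Grin2d and Grin3a. They were chosen by gene symbol, with earlier results of the same mimic and control samples in view, so their differences between mimic and control samples are given as a description and support nothing further. All 6 were found among the 48709 genes of the count tables, and all 6 passed the filter on low counts, which left 17365 genes to test. Expression was measured by RNA sequencing of poly(A) RNA in primary hippocampal neurons, that is, cells of the mouse hippocampus grown in a dish. The cells came from embryos of the CD1 strain at embryonic day 17, and hippocampi of several embryos were pooled before plating. On day 10 in vitro the cultures received lipid nanoparticles loaded either with a miR-181a-5p mimic, a synthetic copy of that microRNA (5 samples, called mimic), or with a negative control oligonucleotide (6 samples, called control), and RNA was taken on day 12, after 48 hours. By the study's methods, apolipoprotein E4 was added together with the particles in both groups, so no group here is free of particles or of apolipoprotein E4. Nothing in the sources used here says that the samples were separate cultures, so any p-value measures only the spread between these samples, which may be technical. Mature microRNAs are not measured by these libraries, and the level of the mimic was not analysed here.

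The NMDA receptor is a glutamate-gated channel that lets calcium enter the postsynaptic neuron when glutamate arrives while the membrane is depolarised, and it is a main trigger of synaptic plasticity in the hippocampus. Every receptor holds the GluN1 subunit, encoded by Grin1, which binds the co-agonists glycine and D-serine. GluN1 assembles with GluN2 subunits, encoded by Grin2a to Grin2d, which bind glutamate and set how long the channel stays open, or with GluN3 subunits. In the forebrain GluN2B dominates before birth and GluN2A joins as synapses mature. A microRNA pairs through its seed, bases 2 to 8 from its 5′ end, mostly with sites in the part of a messenger RNA that follows the stop codon, its 3′ untranslated region, written 3′ UTR.

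The agents that separate the groups are shown first, because their seeds define the sites searched in the members. Both are written 5′ to 3′ with the seed in capitals. In mouse, the mature sequence of miR-181a-5p is encoded at chr1:137966468-137966490 (Mir181a-1) and at chr2:38852741-38852763 (Mir181a-2), both on the plus strand of GRCm38.p6 as given by RefSeq.
miR-181a-5p: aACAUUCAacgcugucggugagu
negative control oligonucleotide: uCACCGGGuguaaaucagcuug

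The 7-base match to the mimic's seed, TGAATGT on the sense strand of the transcript, was present in the longest annotated 3′ UTR of Grin2a and Grin2b alone among the 6 genes. Grin2a held 1 match in a 3′ UTR of 9929 bases, and Grin2b held 3 in a 3′ UTR of 18865 bases. Each match is printed below in a window of 30 bases from the GENCODE M21 transcripts (GRCm38), 5′ to 3′ along the transcript, with the match in capitals. The Grin2a match lies at chr16:9568733-9568739, and the Grin2b matches lie at chr6:135730610-135730616, chr6:135727532-135727538 and chr6:135724176-135724182, all on the minus strand and all in 3′ UTR exons.
Grin2a, base 9088 of the 3′ UTR: gtcttcagagtaTGAATGTtagccttgttc
Grin2b, base 1482 of the 3′ UTR: accactcgacagTGAATGTgcttgcgtgcc
Grin2b, base 4560 of the 3′ UTR: gcagtttattggTGAATGTgtttggtgttt
Grin2b, base 7916 of the 3′ UTR: ctaggcaatttaTGAATGTccatgacatgc

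None of the 4 matches was followed by an A. The 3′ UTRs of Grin1 (1187 bases), Grin2c (402 bases), Grin2d (897 bases) and Grin3a (3615 bases) held no match, which says only that these letters are not in those windows. Among the 14512 tested genes with an annotated 3′ UTR, 19.25% held at least 1 match. The share was 62.45% among the 711 genes whose 3′ UTR had 5000 bases or more, the class to which Grin2a and Grin2b belong. Over all these 3′ UTRs there were 1.38 matches per 10 kb. CCCGGTG, the match to the seed of the negative control, was in none of the 6 members and in 3.36% of the 3′ UTRs. These counts describe sequence and do not show that a site is used.

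Total counts lay between 17287168 (control replicate 5) and 48091231 (control replicate 1, the deepest sample). Levels are given as CPM, counts per 1000000 counts of the TMM-scaled library size. A gene was called when its adjusted p was under 0.05 in edgeR's quasi-likelihood test with Benjamini-Hochberg adjustment over all 17365 genes. The labelled cell type was checked against marker genes, and none of the neuronal, glial, vascular or proliferation markers was at 0 in all samples. The sum of the 8 neuronal markers ranged from 7717 to 7906 CPM under control and from 7626 to 7809 CPM under mimic, and the ranges overlap. Astrocyte markers were present as well, with 4719 to 5156 CPM (control) and 4316 to 4627 CPM (mimic), so the cultures held glia besides neurons. In such bulk samples, fewer cells of a type and less RNA per cell cannot be told apart.

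Of the 6 subunit genes, 3 were called, Grin2a, Grin2b and Grin2c, and all of these were lower in mimic samples. The genes that carry the receptor's shared subunit (Grin1), GluN2D (Grin2d) and GluN3A (Grin3a) were not called. The fitted level fell by 8.50% for Grin2b, by 13.7% for Grin2a and by 20.7% for Grin2c, and each gene remained expressed in every mimic sample. Among all tested genes 2.85% were called, 1.77% lower and 1.08% higher in mimic samples. These shares rest on 307 genes called lower and 188 called higher. With upper-quartile scaling the counts were 226 and 234, while the 3 subunit genes were called under both scalings. With 1 sample left out, 141 (without mimic replicate 2) to 295 genes were called lower. The count called higher was then 68 (without control replicate 1) to 229. Because the genes were selected on this contrast, nothing is read from the count of 3 against those shares. The median log2 fold change of all tested genes was -0.000149.

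**Figure D1:**
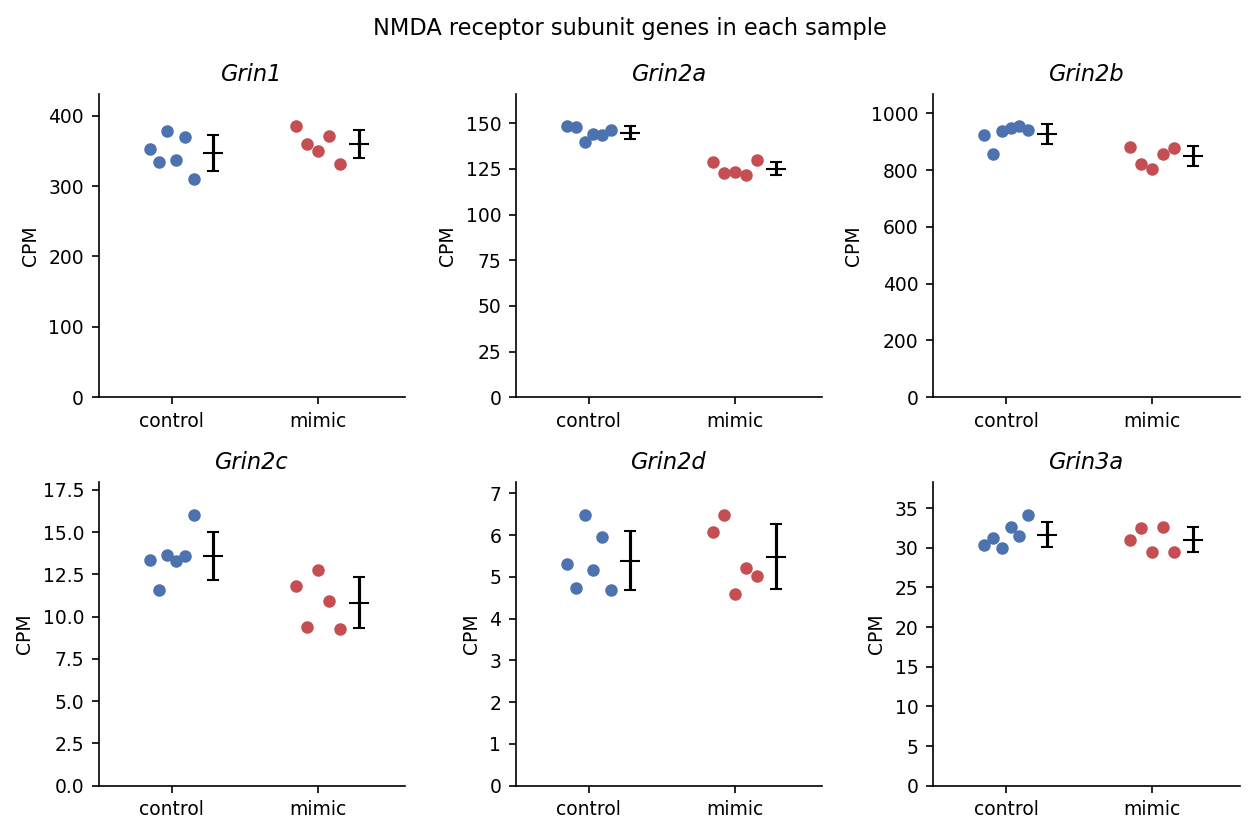
Each panel plots 1 gene, with CPM on the vertical axis from 0, and each point is 1 sample (6 control in blue, 5 mimic in red); the bar is the mean ± SD. The mimic points of Grin2a all lie below the control points, whereas those of the other 5 genes overlap the control range.

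Grin2a encodes GluN2A, the subunit that joins synaptic receptors as they mature and shortens their current. Its control samples ranged from 139.5 to 148.5 CPM with a median of 145.2 CPM. In mimic replicates 1 to 5 it measured 128.6, 122.7, 123.5, 121.6 and 129.7 CPM. All 5 mimic samples were below all 6 control samples, and the nearest samples of the groups were the highest mimic sample at 129.7 CPM and the lowest control sample at 139.5 CPM. Among all tested genes 1.73% were lower in mimic samples without overlap between the groups. Control samples averaged 145.0 ± 3.31 CPM (SD, n = 6) and mimic samples 125.2 ± 3.65 CPM (SD, n = 5). The fitted log2 fold change was -0.21 (SE 0.03, 95% interval -0.27 to -0.16). The spread between control replicates was 2.29% of the mean, close to the 1.69% that counting error alone gives at these depths. Grin2a was called under all 18 alternatives listed in the closing section, with log2 fold changes from -0.22 to -0.20.

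Grin2b encodes GluN2B, the predominant GluN2 subunit of immature forebrain neurons and a docking partner of the kinase CaMKII. Its control samples ranged from 856.4 to 955.6 CPM with a median of 941.0 CPM. In mimic replicates 1 to 5 it measured 883.1, 821.6, 803.0, 856.6 and 879.9 CPM. The groups overlapped through control replicate 2, the lowest control sample at 856.4 CPM, while the other 5 control samples, from 922.7 CPM upward, were above every mimic sample. Control samples averaged 927.7 ± 36.7 CPM (SD, n = 6) and mimic samples 848.8 ± 35.5 CPM (SD, n = 5). The fitted log2 fold change was -0.13 (SE 0.03, 95% interval -0.19 to -0.07). The call depended on 1 sample: without mimic replicate 2 the log2 fold change was -0.12 and the edgeR adjusted p was 0.0647. Counts of Grin2b are uncertain to the extent that Gm14329, Gm22892 and Gm26653 on the opposite strand share 143, 86 and 49 of its exon bases, since the libraries do not mark strand.

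Grin2c encodes GluN2C, best known from cerebellar granule cells and also reported in astrocytes and interneurons. Control samples ranged from 11.6 to 16.0 CPM with a median of 13.5 CPM. In mimic replicates 1 to 5 the gene measured 11.8, 9.38, 12.8, 10.9 and 9.29 CPM. The groups overlapped, since control replicate 2 at 11.6 CPM was below mimic replicates 1 and 3, and 3 of 5 mimic samples were below every control sample. The log2 fold change was -0.34 (SE 0.08, 95% interval -0.51 to -0.16). Control samples averaged 13.6 ± 1.43 CPM (SD, n = 6) and mimic samples 10.8 ± 1.52 CPM (SD, n = 5). This was the largest fitted change among the 6 genes and also the least precise of the 3 that were called. It rested on 196 to 635 counts per sample, and Gm25837 on the opposite strand shares 91 of its exon bases. Grin2c lost its call when control replicate 1, 3 or 5 or mimic replicate 2, 4 or 5 was left out, with log2 fold changes from -0.34 to -0.28 and edgeR adjusted p from 0.0502 to 0.1025 in those fits. The sum of the 8 astrocyte markers was also lower in every mimic sample than in every control sample (the CPM ranges are given above), with a log2 difference of the mean sums of -0.13. The glutamate transporter gene Slc1a2 was the only called gene of that list, from 2398 to 2109 CPM in the group means. It made up most of the difference in the sum. The shift was not in Slc1a2 alone, since 6 of the 8 genes were lower, with a median log2 fold change of -0.13. Gfap (-0.14), Aqp4 (-0.11), Aldoc (-0.17) and S100b (-0.16) were lower without a call. Slc1a3 and Aldh1l1 had log2 fold changes of 0.0012 and -0.0013, and Gjb6 was higher (0.54) without a call. The part of the astrocyte markers in the Grin2c difference was not tested.

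Grin1 encodes GluN1, without which no NMDA receptor reaches the surface. Control samples ranged from 309.5 to 378.4 CPM with a median of 345.0 CPM. Mimic replicates 1 to 5 measured 385.4, 360.3, 349.7, 371.3 and 331.9 CPM. The groups overlapped almost entirely, with only mimic replicate 1 outside the control range. The log2 fold change was 0.05 (SE 0.05, 95% interval -0.06 to 0.17) and Grin1 was not called under any of the 18 alternatives. The interval contains 0 and leaves room for a rise of the size of the Grin2b fall, so the call's absence does not show that Grin1 was the same in both groups. Its control replicates varied by 7.30% of the mean, well above the 1.09% from counting error. Grin1os, a gene on the opposite strand, shares 1307 exon bases with Grin1 and measured 2.18 to 3.49 CPM in control samples, so reads from one could be counted for the other.

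Grin2d encodes GluN2D, a subunit of slow-closing receptors found early in development and later mainly in interneurons. It was the lowest of the 6 in CPM, with 4.69 to 6.48 CPM and a median of 5.23 CPM in control samples. Mimic replicates 1 to 5 measured 6.08, 6.49, 4.60, 5.22 and 5.02 CPM, which spans nearly the same range as the control samples. The log2 fold change was 0.05 (SE 0.10, 95% interval -0.15 to 0.24), and it turned to -0.03 without mimic replicate 2. At 85 to 252 counts per sample, counting error alone gives a spread of 8.75% against the 13.1% observed between control replicates. A change of the size of that in Grin2b lies inside the interval of Grin2d. Gm45441 on the opposite strand shares 643 of its exon bases.

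Grin3a encodes GluN3A, a glycine-binding subunit that lowers the calcium permeability of the receptor and is most abundant in juvenile brain. Control samples ranged from 29.9 to 34.2 CPM with a median of 31.3 CPM. Mimic replicates 1 to 5 measured 31.0, 32.5, 29.4, 32.6 and 29.5 CPM, and 3 of these lay within the control range. The log2 fold change was -0.02 (SE 0.04, 95% interval -0.11 to 0.06). Its sign turned without control replicate 6 (0.0058) and without mimic replicate 3 (0.0002). Grin3b, the gene for the other GluN3 subunit and not one of the 6, had 2 to 23 counts per sample, with 3 of 11 samples at or below the limit of 3 counts that a count of 0 allows, and was not called.

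**Figure D2:**
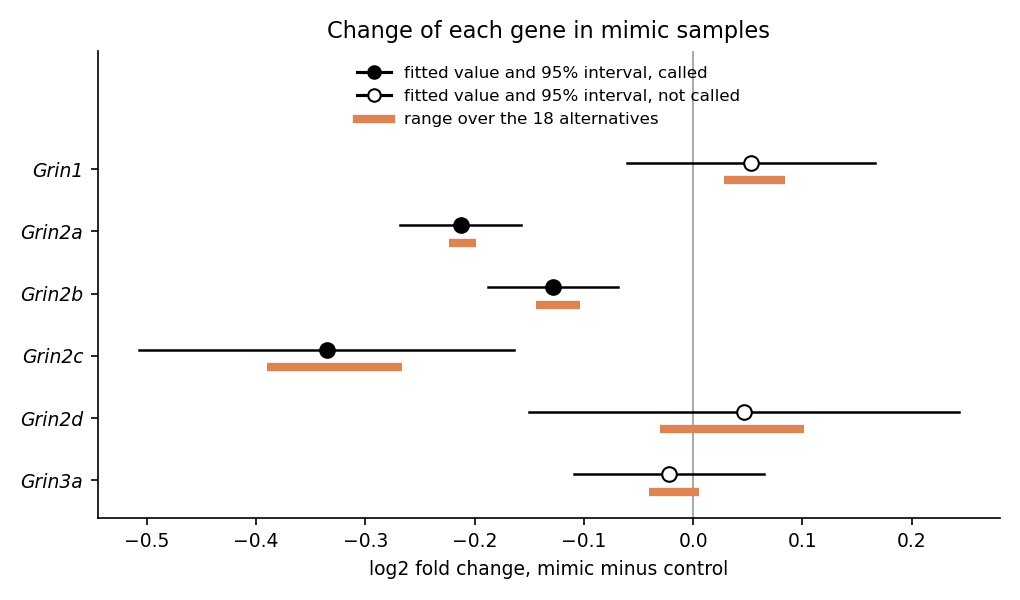
The horizontal axis is the fitted log2 fold change (mimic minus control) of each gene; circles with black lines are the fitted value and its 95% interval, filled when called, and the orange bar is the range over 18 alternative analyses. Grin2a, Grin2b and Grin2c lie left of 0 with their whole interval, while the intervals of Grin1, Grin2d and Grin3a cross 0.

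The next comparison asked how the levels of the subunit genes stand to each other in control samples, which the choice of the genes did not use. CPM grows with gene length, so levels between genes were compared as CPM per kilobase of merged exons. In control samples this level was 37.3 ± 1.48 for Grin2b, 35.8 ± 2.61 for Grin1, 8.08 ± 0.18 for Grin2a, 2.70 ± 0.28 for Grin2c, 2.58 ± 0.13 for Grin3a and 0.81 ± 0.11 for Grin2d (CPM per kb, mean ± SD, n = 6). Grin2b and Grin1 stood at ranks 1132 and 1207 of the 17365 tested genes on this scale, and Grin2d at rank 12525.

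Neighbours in this order were compared sample by sample with a two-sided exact sign-flip permutation test, whose smallest possible p with 6 samples is 0.03125. Grin1 exceeded Grin2a 4.41-fold, Grin2a exceeded Grin2c 3.01-fold and Grin3a exceeded Grin2d 3.20-fold, each in 6 of 6 control samples with an exact p of 0.03125 (adjusted over the 5 neighbour pairs, exact p 0.0521). Grin2b exceeded Grin1 by 1.05-fold in 5 of 6 samples (exact p 0.25, adjusted 0.281), and Grin2c exceeded Grin3a by 1.04-fold in 4 of 6 samples (exact p 0.281, adjusted 0.281). None of the 5 neighbour pairs had an adjusted exact p under 0.05. Per kilobase of merged exons, the neighbours Grin2b and Grin1, and the neighbours Grin2c and Grin3a, did not differ beyond their spread.

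The order of both of these close pairs depends on the length used. Merged exons, longest transcript and longest coding sequence were 9700, 4276 and 2877 bases for Grin1, 24842, 24060 and 4446 bases for Grin2b, 5037, 4895 and 3717 bases for Grin2c, and 12275, 7491 and 3405 bases for Grin3a. Per kilobase of the longest transcript Grin1 was above Grin2b in all 6 control samples (log2 difference of Grin2b over Grin1 -1.07, exact p 0.03125), whereas per kilobase of the longest coding sequence Grin2b was above Grin1 in all 6 (log2 difference 0.79, exact p 0.03125). Grin3a was above Grin2c in all 6 control samples on both of these scales (log2 difference of Grin2c over Grin3a -0.61 and -1.35, exact p 0.03125 each). Grin2a stayed below Grin1 and Grin2b and above the other genes, and Grin2d stayed last, on all 3 scales.

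**Figure D3:**
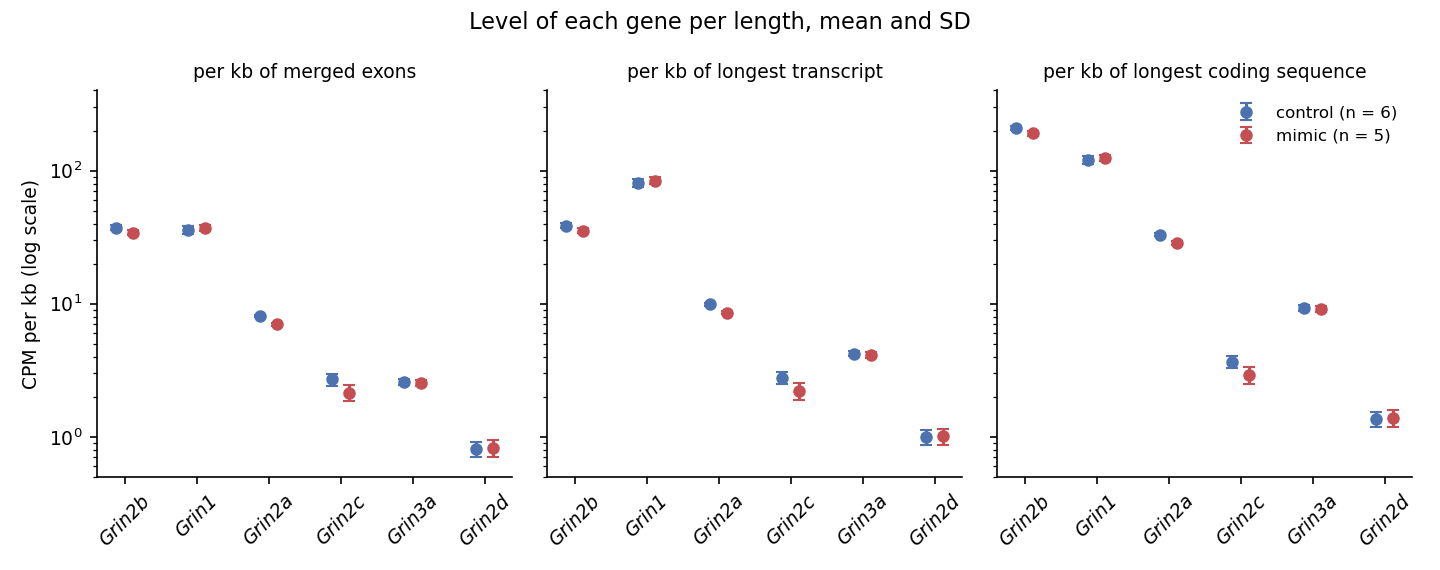
Level of each gene per kilobase for 3 definitions of gene length (panels), on a log axis in CPM per kb, as mean ± SD of 6 control (blue) and 5 mimic (red) samples. Grin2b and Grin1 are highest and Grin2d lowest in every panel, while the order of Grin2b and Grin1 and of Grin2c and Grin3a changes between panels.

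Receptor composition is often read from the balance of the subunit genes, so their ratios were computed in each sample from CPM per kb of merged exons. Since these ratios use the same mimic and control samples as the choice of genes, they are a description. Grin2b made up 76.3% ± 0.63 of the summed level of the 4 Grin2 genes in control samples (SD, n = 6) and 77.4% ± 0.81 with the mimic (SD, n = 5). Grin2a made up 16.5% ± 0.83 and 15.8% ± 0.36. Grin2c contributed 5.50% ± 0.45 and 4.88% ± 0.74, and Grin2d 1.65% ± 0.20 and 1.87% ± 0.27. These shares depend on the length used. Per kilobase of the longest coding sequence, the control shares were 84.6% (Grin2b), 13.4% (Grin2a), 1.48% (Grin2c) and 0.55% (Grin2d).

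The log2 ratio of Grin2a to Grin2b ranged from -2.28 to -2.06 in control samples, and in mimic replicates 1 to 5 it was -2.31, -2.27, -2.23, -2.35 and -2.29. The groups overlapped, with means of -2.21 ± 0.08 (SD, n = 6) and -2.29 ± 0.04 (SD, n = 5), so the ratio of Grin2a to Grin2b fell by 0.08 on the log2 scale, about 1 SD of the control samples. Without control replicate 2 the fall was smaller (log2 difference -0.05). The log2 ratio of Grin1 to the sum of the 4 Grin2 genes ranged from -0.65 to -0.34 in control samples and was -0.21, -0.20, -0.24, -0.21 and -0.40 in mimic replicates 1 to 5. In 4 of 5 mimic samples this ratio was above every control sample, and mimic replicate 5 lay inside the control range. Its mean rose from -0.46 ± 0.11 (SD, n = 6) to -0.25 ± 0.09 (SD, n = 5). This difference was 0.20 with each of the 3 length definitions when rounded. The level of the ratio depended on the length, with a control mean of 0.63 for the longest transcript and -1.04 for the longest coding sequence. The control mean of the log2 ratio of Grin2a to Grin2b was -1.96 and -2.66 with these lengths. The log2 ratio of Grin2c to Grin2b was -3.80 ± 0.12 (SD, n = 6) in control and -4.00 ± 0.23 (SD, n = 5) in mimic samples and overlapped.

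**Figure D4:**
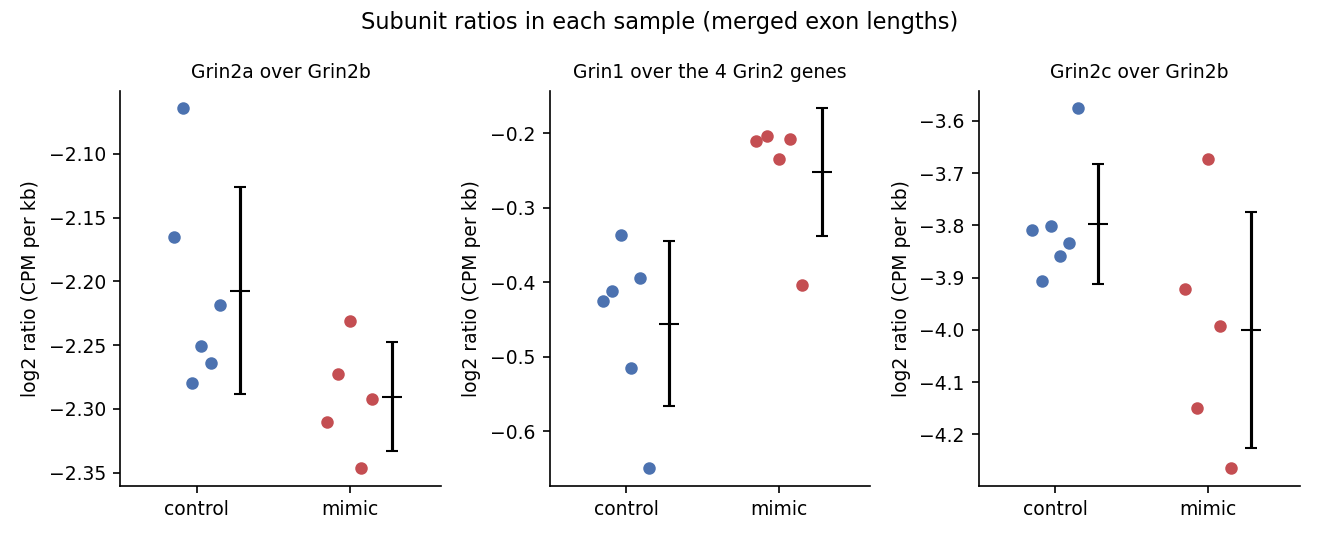
Log2 ratio of CPM per kb of merged exons in each sample (points; 6 control in blue, 5 mimic in red) with mean ± SD, for Grin2a over Grin2b, Grin1 over the 4 Grin2 genes and Grin2c over Grin2b. The groups overlap in all 3 panels, and 4 of 5 mimic samples lie above all control samples for Grin1 over the 4 Grin2 genes.

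Whether the subunit genes vary together from sample to sample was asked within groups, after subtracting each group's mean, which removes the difference between mimic and control. The 15 pairs gave Pearson correlations from -0.43 to 0.77 over 11 samples, and 8 were positive. After adjustment over the 15 pairs, 0 passed by Pearson's r or Spearman's rho (permutation test with 100000 resamples, two-sided), and 1 had an unadjusted p under 0.05 by either measure. That pair was Grin1 and Grin2d (r = 0.77, permutation p 0.011, adjusted 0.165; rho = 0.81, permutation p 0.0073, adjusted 0.109). Without control replicates 3 and 6, the 2 samples farthest from the median of Grin1, r was 0.66. Without mimic replicate 2 the adjusted permutation p of Grin1 and Grin2d was 0.049 with r = 0.87. Grin2a and Grin2b, called in the same direction, had r = 0.11 within groups (permutation p 0.761, adjusted 0.878), and r was -0.29 without mimic replicates 1 and 5.

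The genes whose centred log2 CPM was most like that of each subunit gene were picked among the 13928 tested genes that averaged 1 CPM or more, as the 3 with the highest Pearson correlation over the 11 samples. The points share libraries and depth, and the values are given as a description with no test. For Grin1 these were Elfn2, Chd5 and Sema6b, each with r = 0.98. For Grin2a they were Zfyve19 (r = 0.96), Pja2 (r = 0.95) and Sptssa (r = 0.95). For Grin2b they were Zbtb20 (r = 0.95), Gm43843 (r = 0.94) and Med12 (r = 0.94). For Grin2c they were A930037H05Rik (r = 0.94), Dgkg (r = 0.92) and Mpi (r = 0.92). For Grin2d they were Tmem198 (r = 0.93), Ccnd3 (r = 0.93) and Zfp467 (r = 0.90). For Grin3a they were Nlrx1 (r = 0.90), Gfm2 (r = 0.90) and Klhl32 (r = 0.89). No gene appeared for more than 1 member.

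The last comparison asked how genes that act around the receptor stood in the same samples. Of 89 genes in 6 lists, 88 were tested. Of these, 10 were called lower and 0 higher in mimic samples (edgeR, beside 1.77% and 1.08% of all tested genes). Because the lists were chosen with earlier results of these data known, nothing is read from the count of 10 against those shares. Among the 10 were Homer1, Dlgap1, Lin7a, Camk2a, Prkca, Kalrn, Tiam1, Camk4 and Lrp8, and the changes of these genes were small, with log2 fold changes from -0.18 to -0.09. The count of 10 depended on single samples. It was 3 without mimic replicate 2, 4 without control replicate 1, 5 without control replicate 5 or without mimic replicate 4, and 6 without control replicate 4.

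Among the 15 postsynaptic scaffold genes, which anchor the receptor in the postsynaptic density, 2 were called lower and the median log2 fold change was -0.08. Homer1, which links glutamate receptors to Shank proteins, averaged 87.3 ± 1.95 CPM under control (SD, n = 6) and 77.3 ± 4.95 CPM under mimic (SD, n = 5; log2 fold change -0.18, SE 0.03). Dlgap1, which joins PSD-95 to Shank, measured 319.0 ± 6.00 and 300.2 ± 8.81 CPM (log2 fold change -0.09, SE 0.02). The groups overlapped for both genes. Homer1 was called under all 18 alternatives. Dlgap1 was called under 5 of them and lost its call with RLE or upper-quartile factors, with limma on the normalized table, with the replicate block, and without control replicate 1, 2, 3, 4 or 5 or mimic replicate 1, 2, 4 or 5 (highest edgeR adjusted p 0.171).

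Of the 11 tested genes for supply and removal of the co-agonists glycine and D-serine, 0 were called by edgeR. Their median log2 fold change was -0.05, and -0.0911 to -0.0329 with 1 sample left out. Of the 11 genes 3 had an unadjusted edgeR p under 0.05. The 2 with the smallest p were Slc7a10, a transporter of D-serine and other small neutral amino acids (1.43 ± 0.22 CPM under control, n = 6, and 1.13 ± 0.21 CPM under mimic, n = 5), and Shmt2, the mitochondrial enzyme that interconverts serine and glycine (34.2 ± 2.16 and 32.2 ± 1.66 CPM). The third was Shmt1, the cytosolic enzyme of the same reaction, with the opposite sign (5.13 ± 0.32 CPM under control and 5.77 ± 0.64 CPM under mimic). The 12 genes for receptor trafficking and turnover had a median of -0.02, and -0.0302 to -0.0118 with 1 sample left out. Among them 1 was called lower. This was Lin7a, part of a complex that carries GluN2B along dendrites, with 172.3 ± 7.27 CPM under control and 156.8 ± 8.99 CPM under mimic (log2 fold change -0.14, SE 0.03). Its call was lost without control replicate 1, 2, 5 or 6 or mimic replicate 2, 3 or 4 (highest edgeR adjusted p 0.119).

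Of the 23 kinases and phosphatases that act on the receptor or are activated by its calcium, 3 were called lower. The median was -0.02, and -0.0281 to -0.0049 with 1 sample left out. Camk2a, the alpha subunit of CaMKII, averaged 1999 ± 32.6 CPM under control (SD, n = 6) and 1876 ± 69.1 CPM under mimic (SD, n = 5; log2 fold change -0.09, SE 0.02), and the groups did not overlap. The call of Camk2a was lost with upper-quartile factors and without control replicate 1, 3, 4 or 5 or mimic replicate 2, 4 or 5 (highest edgeR adjusted p 0.122). Prkca, which encodes the alpha form of protein kinase C, had a log2 fold change of -0.12 (SE 0.02). It ranged from 441.0 to 453.3 CPM under control and from 401.3 to 419.6 CPM under mimic with no overlap, and it was called under all 18 alternatives. In this list 20 genes, among them the subunits of calcineurin, were not called.

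Of the 17 genes for calcium signalling to Ras and the nucleus, 3 were called lower. The median was -0.04, and -0.0486 to -0.0097 with 1 sample left out. Camk4, a nuclear calmodulin-dependent kinase that phosphorylates CREB, ranged from 472.1 to 491.6 CPM under control and from 431.4 to 462.6 CPM under mimic without overlap (log2 fold change -0.11, SE 0.02), and it was called under all 18 alternatives. Tiam1, an exchange factor for Rac that binds the receptor, also did not overlap (log2 fold change -0.14, SE 0.03), and Kalrn, another Rac exchange factor of spines, did (log2 fold change -0.11, SE 0.03). Tiam1 lost its call without control replicate 1 or mimic replicate 2 (highest edgeR adjusted p 0.0656). Kalrn lost its call with the replicate block and without control replicate 1, 4, 5 or 6 or mimic replicate 2 or 5 (highest edgeR adjusted p 0.0988). Of the 10 cell surface partners, 1 was called lower and the median was -0.05. It was Lrp8, a receptor for Reelin and apolipoprotein E, with 244.0 ± 4.87 CPM under control and 229.6 ± 4.34 CPM under mimic (log2 fold change -0.09, SE 0.02). Lrp8 was called under 7 of 18 alternatives and lost its call with upper-quartile factors, with the replicate block, and without control replicate 1, 3, 4, 5 or 6 or mimic replicate 2, 3, 4 or 5 (highest edgeR adjusted p 0.1455).

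**Figure D5:**
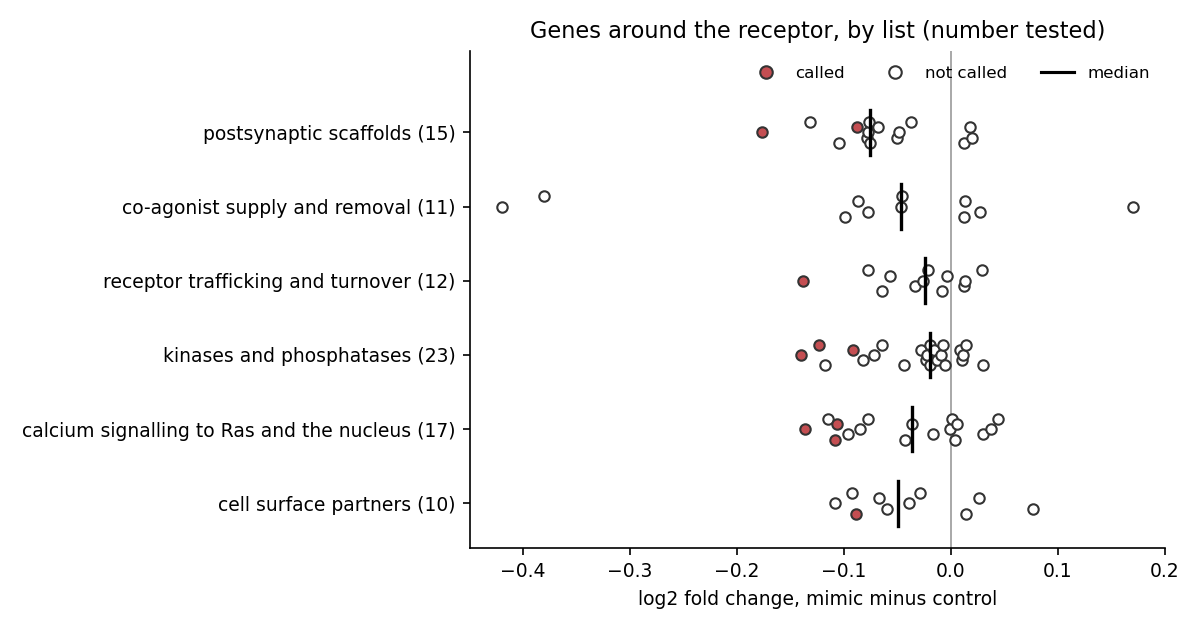
Each point is 1 tested gene of a list of genes around the receptor, placed by its log2 fold change (mimic minus control); red points were called, and the black bar is the list's median. All 10 red points lie left of 0, and the medians run from -0.08 (postsynaptic scaffolds) to -0.02 (kinases and phosphatases).

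Markers of cell types moved between the groups alongside these genes. The 5 markers of excitatory neurons, the cells that carry most of the receptor in hippocampus, summed to 1457 to 1534 CPM under control and 1355 to 1453 CPM under mimic, with no overlap and a log2 difference of the means of -0.09. Within that list Slc17a7 was called lower (log2 fold change -0.14), from 927.2 to 842.5 CPM in the group means. It made up most of the fall in the sum, whose means were 1481 and 1393 CPM. Slc17a6 was called higher (log2 fold change 0.28), and the other 3 were not called. Of the 5 genes 3 were lower, and the median log2 fold change was -0.02. The 5 markers of inhibitory neurons overlapped, with 438.4 to 477.1 CPM under control and 422.8 to 458.3 CPM under mimic, and none was called. The 8 microglial markers were low in both groups, with 15.96 to 16.2 CPM and 14.5 to 15.95 CPM, and the 8 markers of the oligodendrocyte lineage overlapped, with 314.9 to 380.8 and 287.6 to 331.1 CPM. The sum of the 8 fibroblast and vascular markers was higher in every mimic sample (397.6 to 531.3 CPM) than in every control sample (249.5 to 386.0 CPM). Of these 8 genes 7 were tested, and none was called. Col1a1, Col1a2, Col3a1, Dcn and Lum had log2 fold changes from 0.39 to 0.56. Pdgfrb had 0.15, and Pecam1 had 0.05 at means of 0.41 CPM (control) and 0.42 CPM (mimic). The sum of the 8 markers of dividing cells was higher as well (89.1 to 96.3 against 75.1 to 81.4 CPM), with Top2a and Cdk1 called. The part of these shifts in the lower levels of Grin2a, Grin2b and Grin2c was not tested.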

How the data were processed

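RNA was sequenced in 6 control and 5 mimic samples, grouped by their labels. The authors mapped 50-base single-end reads of unstranded TruSeq libraries to mm10 (GRCm38) with STAR 2.5.2b and counted reads per Ensembl gene with featureCounts of Subread 1.5.1. They deposited raw counts per sample and a second table with normalized signal, which served here for 1 alternative alone. Which annotation they counted with, and how they treated strand and multi-mapping reads, was not given in the sources used here. Of 48709 genes, 48349 matched GENCODE M21 (GRCm38), which gave symbols, exon lengths and 3′ UTRs.

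The 6 members and all gene lists were chosen with earlier results of these data known. A gene was tested if it reached 5 counts in 50% of the samples or more, with edgeR 4.0.16 (R 4.3.3; TMM factors, robust quasi-likelihood test, group as sole term, Benjamini-Hochberg adjustment). Standard errors were the log2 fold change over the square root of F. The pipeline was tested on simulated data, but the outcome is not given here and nothing is drawn from it. The study's tool was DESeq2, which was an alternative here (version 1.42.0), as were other scalings, filters and gene lengths, limma 3.58.1 on log2(normalized value + 1), leaving out each sample, and a replicate block. Levels between genes used CPM per kilobase. The text names all members and Grin3b, the 3 genes most alike to each member, and from each list every called gene where 5 or fewer were called, otherwise the 4 with the smallest p, and the 2 with the smallest p where none was called. Of the list genes this rule picks, 1 is not reported here. Slc17a7, Slc17a6, Slc1a2, Slc1a3, Aldh1l1, Top2a, Cdk1, Shmt1 and Grin1os were named after their values were seen. So were Gfap, Aqp4, Aldoc, S100b, Gjb6, Col1a1, Col1a2, Col3a1, Dcn, Lum, Pdgfrb and Pecam1. A count of 0 allows 3 counts, or 0.0624 CPM in the deepest and 0.174 CPM in the shallowest sample; this covers counting error only, because duplicate reads of 1 molecule were not told apart. All pairs of replicates differed by more than counting error, with a chi-square per degree of freedom of at least 1.25.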

Additional observations from a re-analysis of the deposited data

Results flagged for a closer look

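In 36 sets of 4 to 10 samples (the levels, ratios and marker sums of each group), the gap of the most extreme sample to its neighbour was compared with Dixon's 95% critical value. Chance flags about 1 in 20 sets, or 1.8 of the 36, and 4 were flagged. Grin2b in control replicate 2 was 856.4 CPM against 922.7 to 955.6 CPM in the rest of its group, and its gap was 0.668 of the range. The log2 ratio of Grin1 to the 4 Grin2 genes in mimic replicate 5 was -0.40 against -0.24 to -0.20 in the other mimic samples (0.841). The log2 ratio of Grin2c to Grin2b in control replicate 6 was -3.58 against -3.91 to -3.80 (0.683). The summed microglial markers in mimic replicate 5 were 14.5 CPM against 15.5 to 15.95 CPM (0.713).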

How the results depend on the processing

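Among all genes, 495 were called, and 785 were called without a count filter, 558 with DESeq2, 415 with limma on the normalized table, 460 to 491 with other scaling factors, and 218 to 491 when 1 sample was left out (218 without control replicate 1, 237 without mimic replicate 2, 278 without mimic replicate 4). Of the 6 subunit genes, 1 to 3 were called when 1 sample was left out, and 3 under each of the other alternatives. The replicate numbers of the labels did not pair the samples (correlation of same-numbered deviations -0.02 to 0.01, and not every sample correlated best with its own number), and a fit with the replicate block, which also drops control replicate 6, called 328 genes (154 lower, 174 higher), kept the calls of Grin2a (log2 fold change -0.21), Grin2b (-0.12) and Grin2c (-0.27), and turned Grin3a to 0.0031. With 1 sample left out, log2 fold changes ranged from -0.14 to -0.10 for Grin2b, -0.39 to -0.28 for Grin2c, -0.0304 to 0.10 for Grin2d and -0.0408 to 0.0058 for Grin3a, genes called in the 6 lists from 3 to 10, and correlated pairs from 0 to 1. Per kilobase of the longest transcript, log2 differences between neighbours were -1.07 (Grin2b over Grin1), 3.03 (Grin1 over Grin2a), 1.84 (Grin2a over Grin2c), -0.61 (Grin2c over Grin3a) and 2.10 (Grin3a over Grin2d), and per kilobase of the longest coding sequence 0.79, 1.87, 3.18, -1.35 and 2.78, each with an exact p of 0.03125, where the order changed because the lengths differ; Grin2a over Grin2b was -1.96 with the transcript length. With the coding length Grin2a over Grin2b was -2.66. The cause of the changes on leaving out samples was not tested. Of 432 further values for single lists, pairs and directions, 385 stayed on their side, 46 moved and 1 grew stronger. Counting error alone was 5.52% of the control mean for Grin2c, 8.75% for Grin2d and 37.7% for Grin3b, which limits their precision.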
